A study of Mus musculus with 10 samples.

Results

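The transcriptome described here is that of naive, uncut neurite preparations of wild-type mouse cortical neurons, and it includes glial marker genes. Its members are the gene IDs with a deposited value of at least 1 in at least 2 of the 3 naive wild-type libraries, ranked by their mean over the 3. They number 12756 of the 45195 gene IDs listed (28.2%). Of these, 10990 reached 1 in all 3 libraries and 1766 in exactly 2. No other group enters the values below, and no contrast was made.

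Cortical neurons of C57BL/6 wild-type embryos at stage E16.5 were plated on membranes with 3 µm pores, which let neurites through to the lower side, and were kept until 8 days in vitro. All cultures of the series, wild type included, were infected at plating with an adeno-associated virus (AAV2) that carries Cre recombinase under the ubiquitous CAG promoter, so the wild-type neurons also received Cre. Before lysis the somata had been scraped from the top of the membrane with a swab, and the whole membrane with what remained on it was lysed. The series holds 10 libraries, of which these 3 are used here. The labels do not state whether they came from separate cultures, so the SD over them may be technical.

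A neurite is a process of a neuron, either an axon or a dendrite, and a young culture holds both. Neurons transport part of their mRNA into these processes and translate it there, and such local protein synthesis is known for cytoskeletal proteins, ribosomal proteins and nuclear-encoded mitochondrial proteins. The study from which the libraries come concerns Cpeb1, which binds the cytoplasmic polyadenylation element, a short U-rich motif in the 3′ untranslated region of mRNAs, and controls their poly(A) tails and translation. In a bulk lysate, fewer cells of a type and less RNA per cell cannot be told apart.

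Each value is an abundance per transcript length from RSEM, scaled by a factor per library. The values do not tell whether FPKM or TPM was scaled, so a level is given as a value with no further unit, and genes can be compared with each other because length is already divided out. The library totals were 811219, 726419.6 and 805725 for replicates 1, 2 and 3. Regular steps in the low values gave an estimated 26.6, 27.8 and 26.6 fragments per kilobase of transcript behind a value of 1. By this estimate the 3 libraries were about equally deep. Errors are SDs over the 3 libraries (n = 3), and 2 levels are called different only where their 3 values do not overlap.

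A small number of transcripts made up much of the total. The 10 IDs with the highest means held 26.0% ± 2.77 of the total, the 100 highest 43.8% ± 2.27 and the 1000 highest 72.4% ± 1.21. All members together held 99.5% ± 0.153. Means of at least 1000 were reached by 72 members, 967 lay from 100 to under 1000, 5759 from 10 to under 100, 5848 from 1 to under 10, and 110 had a mean under 1. The median member had a mean of 11.2.

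Most members were protein-coding genes: 11500 of 21488 listed protein-coding IDs passed (53.5%). Counts of members in the gene lists below are to be read beside this share. All protein-coding IDs together held 70.4% ± 2.27 of the total. Passing was less frequent among long noncoding RNAs, with 593 of 6225 (9.53%), and among pseudogenes, with 295 of 8586 (3.44%). Another 71 members had an ID without a match in the annotation. The values of 25525 IDs, 6906 of them protein-coding, were listed at 0 in all 3 libraries.

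**Figure D1:**
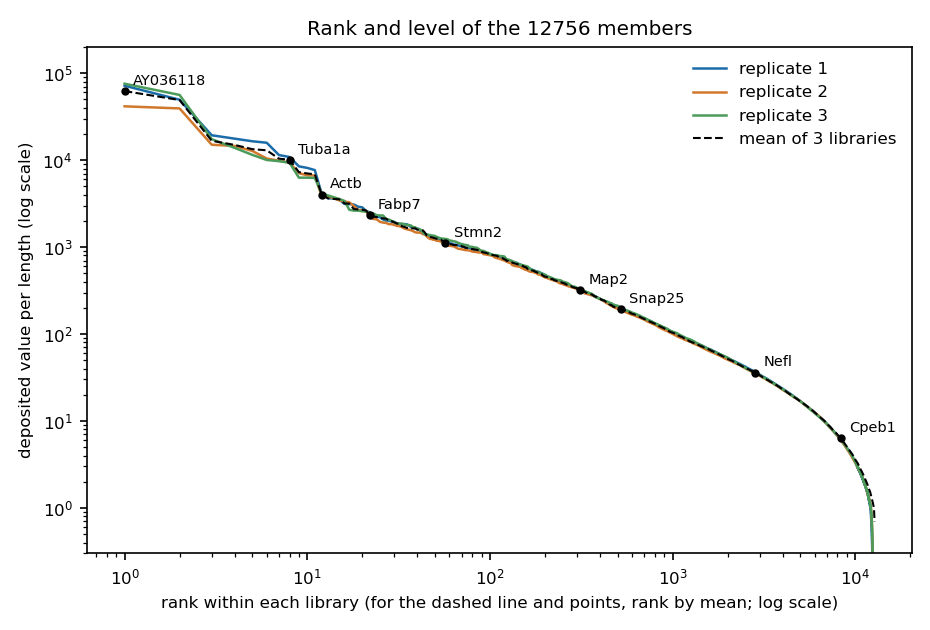
Deposited value of the members against their rank, on 2 log axes. Each coloured line is 1 library, the dashed line the mean of the 3, and points mark named genes at their mean, from AY036118 at 62250.0 to Cpeb1 at 6.32.

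The highest levels of all belonged to structural RNAs rather than to mRNAs. AY036118, a noncoding ID inside a ribosomal RNA annotation (chr17:39847113-39848035, mm10), had values of 71763, 39309 and 75679, and the ribosomal RNA ID around it, CT010467.1 (chr17:39846353-39848827), had 49470.1, 41567 and 56199. Replicate 2 was lowest for both. Ribosomal RNA has no long poly(A) tail, and these libraries were primed with oligo(dT). Together the 2 IDs took 14.9%, 11.1% and 16.4% of the 3 totals, so every other share moves with them. The exons of both IDs overlap with those of other listed genes, and the libraries are not stranded, so the split of reads between them is uncertain.

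Copies of mitochondrial genes came next. No gene of the mitochondrial chromosome itself is among the values. The nuclear genome carries inserted copies of mitochondrial DNA, and 18 listed IDs matched a mitochondrial transcript at 88.5% to 100% identity, of which 15 were members and 8 stood among the 20 highest IDs. A cluster of 7 of the 18 lies within 5 kilobases on chromosome 1 (chr1:24611535-24616197). The most abundant were Gm20594 at 16690.4 ± 1444, a copy of the large mitochondrial ribosomal RNA mt-Rnr2, Gm29216 at 14964 ± 1362, a copy of the cytochrome oxidase gene mt-Co1, and Gm10925 at 13368 ± 2237, matching mt-Atp6 at 100% identity. Together the 18 held 10.9% ± 1.05 of the total, 11.8%, 11.2% and 9.75% in replicates 1 to 3. Between them they match 12 mitochondrial genes. Where identity is close to 100%, reads of a mitochondrial transcript and of its nuclear copy cannot be told apart.

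ENSMUSG00000089855, at rank 6, has no match in the annotation used. Its values were 19313, 9854 and 9730.4, high in replicate 1 only. Gm37376, at rank 16, lies entirely within Malat1 and is not independent of it.

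Below these, mRNAs of the cytoskeleton led. Among the 30 ordinarily named genes with the highest means, 1 encodes a tubulin, 4 actin or a monomer-binding thymosin, 2 other growth cone proteins, 5 ribosomal proteins, 1 a translation elongation factor, 7 subunits or regulators of oxidative phosphorylation, 2 ferritin chains, 2 chaperones, 1 ubiquitin and 1 calmodulin. The remaining 4 were in none of the family lists: Malat1, Fabp7, Dbi and Mif.

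Tuba1a (chr15:98949837-98953703), the alpha-tubulin isotype of postmitotic neurons, was the highest ordinarily named gene, with 10859, 9365 and 10035, at rank 8 of all IDs. Its lowest library was still above the highest library of every other ordinarily named gene, 4129 for Actb. Alone it held 1.29% ± 0.0466 of the total. It has 7 near-identical copies among the listed genes, and the share of reads assigned to each is an estimate.

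Actb, cytoplasmic beta-actin and a known locally translated mRNA, had 4081, 3812 and 4129 (chr5:142903115-142906754). Ftl1, the ferritin light chain that stores iron, followed with 3641, 3343 and 3918. Ppia, the prolyl isomerase cyclophilin A, had 3514, 3644 and 3574, and Stmn1, the tubulin-binding stathmin, 3624, 3264 and 3730.5. The values of Actb and Ppia did not overlap, while those of Ftl1 overlapped with both, and those of Stmn1 with Ftl1 and Ppia. Tmsb4x, which sequesters actin monomers, had 3114, 2974 and 3392, and the gamma-actin gene Actg1 2860.2, 2658 and 2685. Actg1 and Eef1a1, the factor that brings aminoacyl-tRNA to the ribosome (2912, 2585 and 2628), overlapped.

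Further down the same order stood Malat1 at 2633 ± 792, Fabp7 at 2308 ± 245, Rpl41 at 2252 ± 358, the ferritin heavy chain Fth1 at 2139 ± 217, and Dbi, the acyl-CoA-binding protein, at 2126 ± 308. Malat1 had 2603, 3440.1 and 1856, a range that takes in all 3 values of Eef1a1 above it and of Fabp7 below it. From rank 28 to rank 46 the levels of named genes declined only from 2011 ± 122 (the polyubiquitin gene Ubb) to 1324 ± 12.3 (the constitutive heat shock cognate Hspa8). Every pair of neighbours in that stretch overlapped except Rtn1 and Cox6b1.

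**Figure D2:**
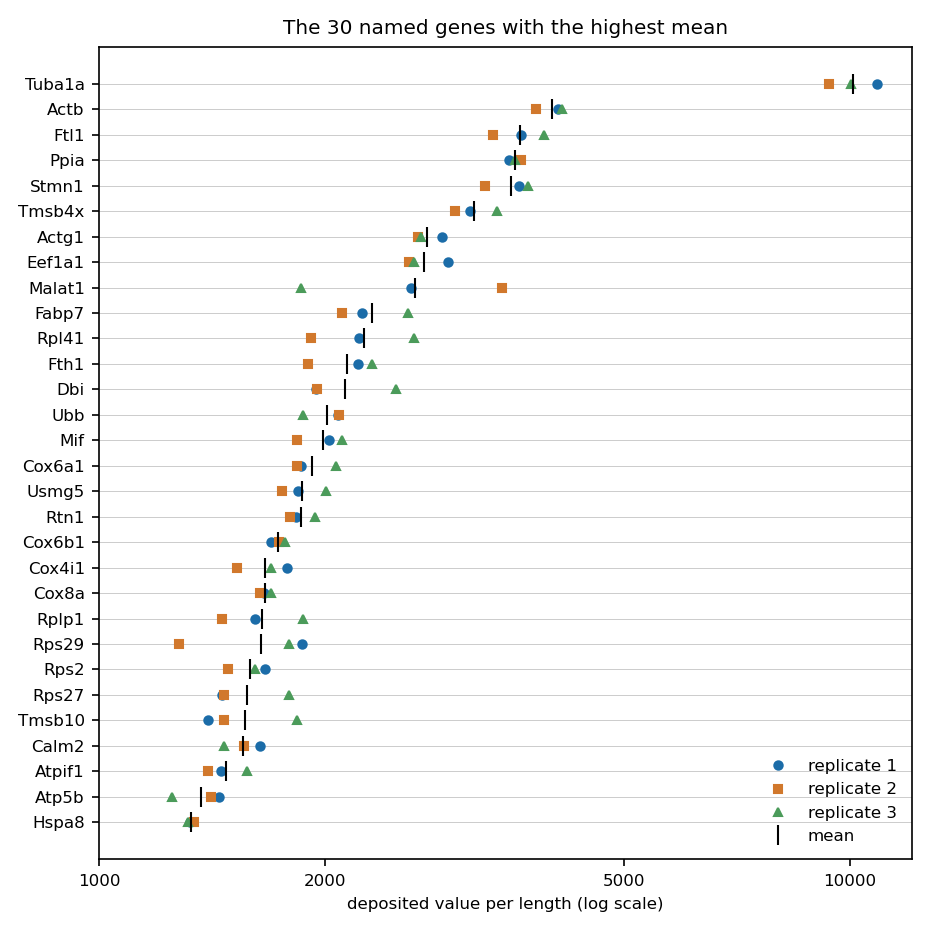
The 30 named genes with the highest mean, each library as a point and the mean as a bar, on a log axis of the deposited value. Tuba1a stands apart, at 9365 to 10859, and Malat1 has the widest spread of the 30 on this axis.

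Tubulin RNA was dominated by 1 isotype. Of 20 tubulin genes 15 were members, and the family held 1.96% ± 0.0345 of the total, 65.7% ± 1.22 of it from Tuba1a. The beta-tubulins Tubb2a, Tubb3 and Tubb5 followed at 1230.4 ± 46.0, 1052 ± 110.3 and 1009 ± 86.2. Tubb3 is the isotype used as a neuronal marker. The second alpha-tubulin was Tuba1b at 759.6 ± 49.0. Outside the members, with values listed at 0 in every library, were Tuba3a, Tuba3b, Tuba8, Tubal3 and Tubb1, named here after their values were seen.

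The actin system was broader. Of its list 46 of 48 genes were members, and the list held 2.27% ± 0.0868 of the total. Besides both actins and Tmsb4x, the second thymosin Tmsb10 had 1396, 1467 and 1833, highest in replicate 3. Cfl1, the filament-severing cofilin, had 889, 867 and 1011. The median gene of the list had a mean of 93.3, against 1.93 for all protein-coding IDs and 12.5 for protein-coding members.

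All 23 genes of the growth cone, stathmin and collapsin response mediator list were members, and they held 1.71% ± 0.0487 with a median of 265. Growth cones are the motile tips of growing neurites. The reticulon Rtn1 had 1829, 1796 and 1939. The neuronal stathmins Stmn2 and Stmn3, which destabilize microtubules, lay lower, at 1109 ± 67.1 and 1099 ± 80.6. The collapsin response mediator Dpysl3, an intracellular relay of semaphorin signals, was at 862 ± 59.0.

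Microtubule-associated proteins, with 27 of 28 genes as members, held 0.383% ± 0.0164. Mapt, which encodes the axonal protein tau, led with 666, 517 and 599.9. Map2, whose protein marks dendrites, had 314, 344 and 311, below Mapt in every library and without overlap. Map1lc3a, an autophagosome protein, was at 469 ± 48.3 and Map1b, abundant in growing axons, at 284 ± 18.8.

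Motor proteins were present at moderate levels, with 42 of 44 genes of the kinesin, dynein and dynactin list as members and a share of 0.544% ± 0.0386. Its highest genes were dynein light chains, Dynlt1b at 667 ± 27.1, Dynlrb1 at 549 ± 45.9 and Dynll1 at 475 ± 20.1. The kinesin light chain Klc1, which links cargo to the anterograde motor, was at 384 ± 37.0.

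Intermediate filament RNA was scarce, at 0.0635% ± 0.0101. The neuronal filament Ina had 157, 117 and 143 and the light neurofilament chain Nefl 42.5, 31.5 and 34.0. Nefm, the medium chain, had 9.84, 11.3 and 2.39, and the heavy chain Nefh missed the threshold with 0.176, 1.31 and 0.571. Gfap (104, 111 and 179) and Vim (67.6, 109 and 169), filaments of astrocytes and of glial progenitors, were both highest in replicate 3. Both filaments of glia stood above the neurofilament triplet in every library.

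Ribosomal proteins were the largest family. Of 82 cytosolic ribosomal protein genes 81 were members, 79 had a mean of at least 100, and 23 stood among the 100 highest members. The family held 6.89% ± 0.199 of the total, 6.68%, 6.92% and 7.07% in replicates 1 to 3, and its median gene had a mean of 557. Rpl41, which encodes the smallest ribosomal protein, led with 2218, 1913 and 2626. Rplp1, a protein of the stalk, had 1612, 1457 and 1865, and Rps29 1860.2, 1278 and 1788, lowest in replicate 2. Rps2 and Rps27 were at 1587 ± 94.2 and 1571 ± 190.0.

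A near-identical copy among the listed genes was found for 75 of these 82 genes, so single values depend on how reads were divided. The gene of the family that was not a member was Rps12, with 0, 0.0720 and 39.3. It is named because of that outcome. A gene whose product every ribosome carries was thus listed at 0 in replicate 1, so a 0 in these values need not mean that the RNA was absent.

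Translation factors were also all present, with 47 of 47 as members and 1.35% ± 0.0648 of the total. Below Eef1a1 came the start-codon factor Eif1 at 798 ± 12.2, Eif5a at 694 ± 40.1, Tpt1 at 617 ± 14.5 and the exchange factor subunit Eef1b2 at 470.1 ± 49.6. Ribosomal proteins and factors together held 8.24% ± 0.171.

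Many mRNAs of the translation machinery begin with a 5′ terminal oligopyrimidine tract, a C at the first base followed by a run of pyrimidines, through which mTOR signalling controls their translation. The first 20 bases of annotated transcripts are shown for the 5 most abundant ribosomal protein genes that had such a tract. Those of the 2 most abundant cytoskeletal mRNAs are shown too, with each tract in capitals (GENCODE M21 transcripts, mm10).
Rps2, chr17:24720110-24720129, plus strand: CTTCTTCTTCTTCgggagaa
Rps27, chr3:90213629-90213648, minus strand: CCTTTCCggcggtgacgacc
Rpl32, chr6:115808728-115808747, minus strand: CTTCCTTCTTCCTCggcgct
Rpl13a, chr7:45128718-45128737, minus strand: CCTTTCCCaggcggctgccg
Rps18, chr17:33955644-33955663, minus strand: CTCTTCCacaggaggcctac
Tuba1a, chr15:98953684-98953703, minus strand: gattacctcataccatgtcg
Actb, chr5:142906735-142906754, minus strand: tataaaacccggcggcgcaa
The sequence shown is that of the protein-coding transcript with the longest tract per gene, or of the first such transcript where there is none. These 5 genes had means of 1587, 1571, 1305, 946 and 944.

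A C followed by at least 4 pyrimidines stood at an annotated start in 23 of the 82 ribosomal protein genes (28%) and in 9 of the 47 translation factor genes (19.1%), against 1104 of all 21488 protein-coding genes (5.14%). The share was 14.5% among the 55 protein-coding members with a mean of at least 1000, 8.60% from 100 to under 1000, 6.52% from 10 to under 100 and 5.14% under 10. Outside the 2 translation lists, members with a mean of at least 100 had it in 6.76% (58 of 858). An annotated start can lie some distance from the true one, and a start that misses the C by a base counts as having no tract. The Tuba1a and Actb starts shown therefore cannot decide whether these mRNAs begin with a tract.

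RNA for oxidative phosphorylation was abundant and covered every complex. The nuclear-encoded subunits, 83 genes in 3 lists, held 4.98% ± 0.217 of the total. All 37 genes of complex I and all 17 of the ATP synthase under the names that matched were members, and 27 of 29 of complexes II to IV; Cox4i2 and Cox7a1, isoforms of other tissues and named after their values were seen, were not.

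Cytochrome oxidase subunits led these lists. Cox6a1 had 1854, 1834 and 2069.6, Cox6b1 1691, 1736 and 1769.7, Cox4i1 1779.6, 1524 and 1691 and Cox8a 1657, 1635 and 1692. Of complex I the highest was Ndufa4 at 1242 ± 102, a protein since found to belong to cytochrome oxidase, and then Ndufb9 at 695 ± 95.7. Of the ATP synthase, Usmg5, a membrane subunit, was at 1864 ± 126, the inhibitor Atpif1 at 1474 ± 91.4, and the catalytic subunit Atp5b at 1367 ± 102.

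Glycolytic RNA held 0.537% ± 0.0281 with 20 of 21 genes as members. Gapdh stood at 1259 ± 107, with at least 49 near-identical copies among the listed genes, the most that the search could return. Eno1 was at 406 ± 17.7, Aldoa at 375 ± 16.1 and Pgam1 at 346 ± 9.87. The hexokinase Hk2, the gene of the list that was not a member, is named after its values were seen.

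Protein quality control formed a further large group. Chaperones held 1.41% ± 0.0888 (43 of 44 genes as members), ubiquitin genes 0.996% ± 0.0682 (16 of 16) and the proteasome 0.831% ± 0.0350 (40 of 41). After Ppia and Hspa8, the cytosolic Hsp90 genes Hsp90aa1 and Hsp90ab1 were at 865 ± 27.0 and 841 ± 31.1. The neuronal deubiquitinase Uchl1 was at 877 ± 114, and the proteasome beta subunit Psmb6 at 456 ± 33.6. The 24 iron storage and antioxidant genes were all members and held 1.21% ± 0.0443; below both ferritins came the superoxide dismutase Sod1 at 868 ± 41.3 and the peroxiredoxin Prdx2 at 537 ± 18.6.

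Calm2, which encodes the calcium sensor calmodulin, had 1636, 1561 and 1466. The kinase subunit Camk2b was at 285 ± 40.4. Camk2a, known as a dendritic mRNA, had 57.2, 50.9 and 109, below Camk2b in every library.

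**Figure D3:**
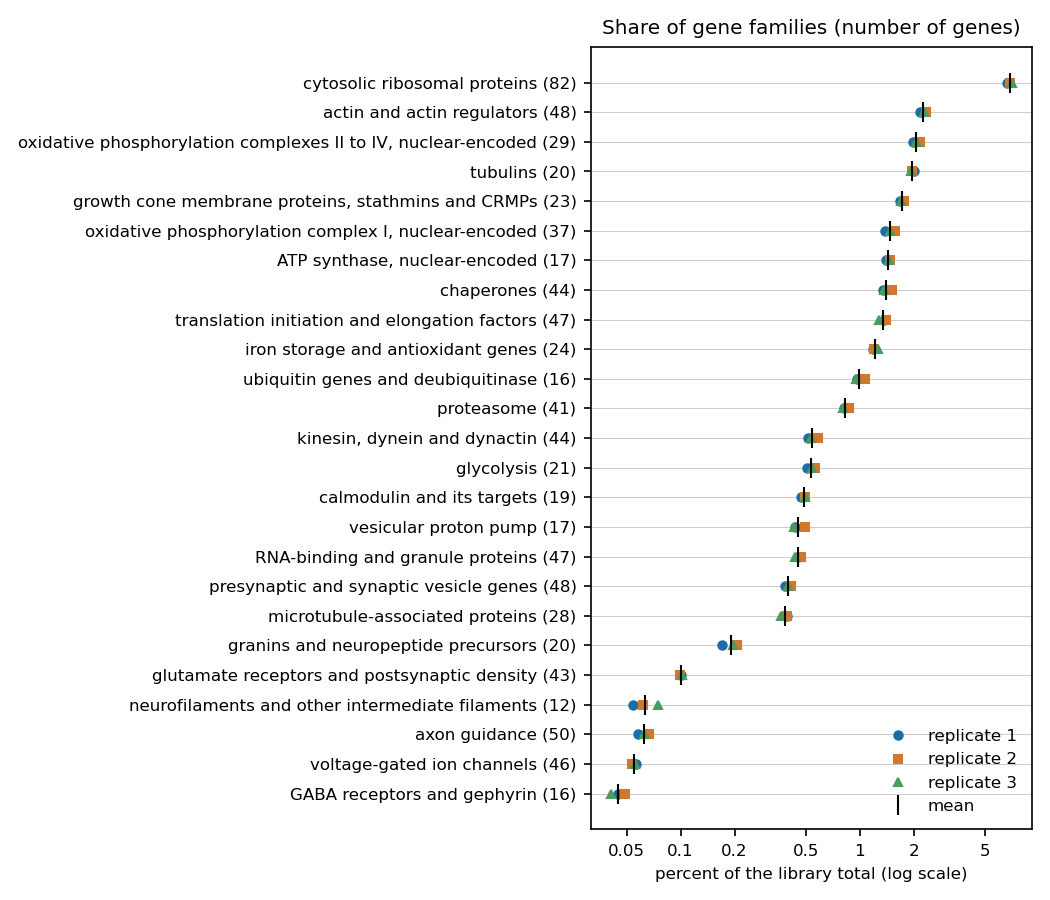
Share of the library total held by each of 25 gene families, on a log axis of percent, each library as a point and the mean as a bar, with the number of genes in parentheses. Families run from ribosomal proteins at 6.89% to GABA receptors at 0.0448%, while neighbouring families often overlap.

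RNA of synaptic proteins was present for nearly all genes but held smaller shares of the total. List medians were 27.8 for presynaptic genes, 15.7 for GABA receptors and 7.78 for glutamate receptors and the postsynaptic density. The median protein-coding member had a mean of 12.5. The presynaptic list had 47 of 48 genes as members and held 0.396% ± 0.0149. Among its highest genes were Rab3a, a vesicle GTPase, at 340.1 ± 48.2, the vesicle SNARE Vamp2 at 252 ± 26.9 and the membrane SNARE Snap25 at 193 ± 17.0. Sncg, the list's gene that was not a member, is named after its values were seen.

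Postsynaptic genes held less. Glutamate receptors and the postsynaptic density held 0.10% ± 0.00137 (40 of 43 genes as members), with the scaffold Dlgap4 at 169 ± 46.8 and the AMPA receptor subunit Gria2 at 144 ± 12. Of NMDA receptor subunits, Grin2b had 69.5, 28.6 and 55.7. GABA receptors and their anchor gephyrin held 0.0448% ± 0.00384, all 16 as members, led by Gabra5 at 82.9 ± 13.6. Voltage-gated channels held 0.0552% ± 0.00146 with a median of 4.47, below the 12.5 of protein-coding members, and Cacnb3, an auxiliary calcium channel subunit, was the highest at 94.9 ± 18.5.

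The vesicular proton pump, which acidifies synaptic vesicles and lysosomes, held 0.453% ± 0.0346 with all 17 genes as members, led by its membrane ring subunit Atp6v0c at 837 ± 34.9. Granins and neuropeptide precursors held 0.190% ± 0.0188, led by the processing enzyme Cpe at 394 ± 44.3 and the peptide somatostatin, Sst, with 204, 255 and 434. For Sst, replicate 3 was high.

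Axon guidance genes were low, with 45 of 50 as members and a share of 0.0625% ± 0.00462. Efnb3, an ephrin ligand, was at 52.5 ± 8.30, the adhesion protein Cntn1 at 49.1 ± 9.72 and the ephrin receptor Epha7 at 32.2 ± 3.68. Their median of 5.61 lay below that of protein-coding members.

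RNA-binding proteins, which package and regulate mRNA, had 45 of 47 genes as members and held 0.450% ± 0.0175. Ybx1, a cold-shock domain protein, led with 1180.2, 1125 and 1183, followed by Hnrnpk at 502 ± 30.8 and Hnrnpa2b1, a binder of transported mRNAs, at 243 ± 15.1. Outside the members were Igf2bp1 and Igf2bp2, embryonic RNA-binding proteins named after their values were seen.

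Cpeb1 itself was a member in the lower range, with 7.16, 5.96 and 5.86 (mean 6.32 ± 0.723, rank 8310). Its paralogs were all members too: Cpeb2 with 4.31, 3.95 and 1.99, Cpeb3 with 2.50, 3.61 and 1.45 and Cpeb4 with 3.76, 4.46 and 1.67. The lowest Cpeb1 value lay above the highest of each paralog, and the 3 paralogs overlapped with each other.

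The element that Cpeb1 binds was looked for as TTTTAT or TTTTAAT in the transcript sequence of the annotated 3′ untranslated region. The 2 spellings do not contain each other. For each gene 1 transcript was used, its longest protein-coding one, here and for the lengths below. Which transcripts were expressed was not tested. Of the 29 protein-coding genes among the 30 most abundant named genes, 5 held the element in that transcript. For 4 of them the element nearest the 3′ end is shown in capitals with up to 10 bases on each side (GENCODE M21, mm10).
Actb, chr5:142903269-142903295, minus strand: tcatttttgtTTTTAATttctgaatgg
Eef1a1, chr9:78478508-78478534, minus strand: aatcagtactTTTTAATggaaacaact
Usmg5, chr19:47085150-47085175, minus strand: tgacttaatgTTTTATtgttgggagc
Rps2, chr17:24721884-24721903, plus strand: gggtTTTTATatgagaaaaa
These lay 164, 69, 1696 and 36 bases from the annotated end, in untranslated regions of 683, 285, 2494 and 46 bases.

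Among members, the element was less frequent in classes of higher mean. It was present in 22.2% of protein-coding members with a mean of at least 1000, in 43.7% from 100 to under 1000, in 62.6% from 10 to under 100 and in 68.8% under 10, against 56.3% of all protein-coding genes with such a region. Protein-coding genes that were not members had it in 47.3%, between the shares of the 2 middle classes of members. Abundant members also had shorter untranslated regions, with medians of 218, 559, 1172 and 1458.5 bases in the same order. Among regions under 500 bases the shares were 12.2% (5 of 41), 19.0%, 27.0% and 28.1%, and 17.1% for genes that were not members, whose median region over all lengths had 644 bases. RNA-binding proteins had it in 45 of 47 genes, with a median region of 2635 bases. A match is a string of letters, and binding was not measured.

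Length as a whole followed the same order. The median transcript of protein-coding members had 1094 bases at a mean of at least 1000, 1743 from 100 to under 1000, 3049 from 10 to under 100 and 3761 under 10, and the median coding sequence 447, 675, 1260 and 1617 bases. Over the 11500 protein-coding members Spearman's rho between mean and transcript length was -0.32, given as a description across genes that share libraries, and the values themselves are divided by length.

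Apart from AY036118, which is annotated as a long noncoding RNA and described above with ribosomal RNA, long noncoding members were led by Malat1, a nuclear speckle RNA (chr19:5795690-5802672), and Meg3, an imprinted RNA of neurons, at 722 ± 86.3. Next came Gm26917 at 429 ± 76.4, which lies beside the ribosomal RNA IDs on chromosome 17, the snoRNA host Gas5 at 406 ± 25.4, Pantr1 at 363 ± 18.5, Snhg6 at 268 ± 18.5, Cct6a at 195 ± 25.2, Snhg14 at 181 ± 29.4, Gm17750 at 165 ± 29.7 and 2410006H16Rik at 146 ± 30.7. Cct6a encodes a chaperonin subunit but is annotated as a processed transcript in the release used.

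Because the neurites were separated from cell bodies, RNAs held in the nucleus bear on the preparation. All 12 matched genes of the nuclear-retained list were members, with 0.526% ± 0.123 of the total, 63.7% ± 8.32 of it Malat1. Neat1, which builds paraspeckles, had 1.53, 4.45 and 9.07, and Xist, which coats the inactive X chromosome, 12.1, 3.70 and 6.07. Whether nuclei remained on the membranes was not tested.

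Known localized mRNAs were nearly all members, beside 53.5% of all protein-coding IDs. Lists not chosen for localization passed as fully, such as proliferation genes with 23 of 23. Membership therefore does not tell localized mRNAs apart. Of mRNAs known from axons, 22 of 22 were members, with a median of 126. Of those known from dendrites, 19 of 20 were, with a median of 23.5; Arc, the immediate early gene known for its transport into dendrites, missed the threshold with 0.273, 1.51 and 0.679. Both medians lay above the 12.5 of protein-coding members. In the activity-driven immediate early list 19 of 28 genes were members, the median was 2.67, and the highest were Homer1 at 19.8 ± 0.907 and Nr4a3 with 21.2, 6.15 and 31.7.

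Cell type markers were checked against the label. All 15 pan-neuronal genes were members, beside 53.5% of all protein-coding IDs, but so were all 23 proliferation genes. The pan-neuronal list held 0.414%, 0.418% and 0.417% of the 3 totals, a range narrower than that of any glial list below relative to its level. With protein-coding genes alone in the total the spread was wider, at 0.592% ± 0.0167. The list medians were 66.4, 64.6 and 57.0 in replicates 1 to 3, and Stmn2 alone made up 34.1% of the list. The leading pan-neuronal genes were Stmn2, Tubb3, Map2, Snap25 and Ina, and Rbfox3, whose protein NeuN is nuclear, had 60.5, 37.1 and 45.2.

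Glutamatergic projection neuron genes were all members too (18 of 18) and held 0.0896% ± 0.00627. Mef2c, a transcription factor of maturing cortical neurons, was at 282 ± 21.4 and Neurod6 at 152 ± 10.1. The vesicular glutamate transporters were low: Slc17a7 had 2.26, 2.52 and 4.93 and Slc17a6 7.92, 2.85 and 4.09.

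Interneuron genes, 20 of 22 of them members, held 0.0614%, 0.0831% and 0.0951%, lowest in replicate 1. Besides Sst, the neuropeptide Npy had 89.8, 174 and 126, and the GABA-synthesizing enzyme Gad1 76.9, 72.9 and 78.6, close together in the 3 libraries. Sst and Npy were both lowest in replicate 1. The median of the list was highest in replicate 1, at 6.07 against 3.43 and 3.73. Of its 20 members 9 were highest in replicate 1, 1 in replicate 2 and 10 in replicate 3. Of all members, 35.7%, 29.5% and 34.8% were highest in these libraries. Pvalb, of a later-maturing interneuron class, was listed at 0 in every library.

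Astrocyte genes were also present. Of 20, 17 were members, and the list held 0.194%, 0.253% and 0.263% in replicates 1 to 3; 10 of its members were highest in replicate 3 and 3 in replicate 1, beside 34.8% and 35.7% of all members. Apoe, the lipid carrier, had 769, 1012 and 1081 and made up 51.6% ± 3.25 of the list. Aldoc, a glycolytic isozyme, had 161, 138 and 182, and the glutamate transporter Slc1a3 79.0, 99.0 and 121. The water channel Aqp4 was at 6.03 ± 1.71. Gjb6 was listed at 0 in all 3, S100b had 0, 1.78 and 0.0300 and Ntsr2 0.537, 2.08 and 0.345, and these 3 are named as the list's genes that were not members.

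Radial glia genes, 12 of 13 of them members, held 0.325% ± 0.0292, but 90.8% ± 1.41 of that was Fabp7. Fabp7 (chr10), the brain fatty acid-binding protein of radial glia and astrocytes, had 2237, 2106 and 2580.3, rank 22 of all. Other radial glia genes were lower, with Vim, given above with the filaments, at 115 ± 50.8, Ptprz1 at 37.7 ± 2.87, Hes5 with 21.4, 38.5 and 34.7, Nes with 5.16, 9.99 and 13.3 and Sox2 with 7.65, 5.47 and 5.17. All 23 proliferation genes were members with a median of 8.94, from the replication clamp Pcna at 69.3 ± 12 and the mitotic kinase Cdk1 with 45.3, 25.9 and 20.1 at the upper end, and Mki67 had 1.28, 3.32 and 0.285.

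Oligodendrocyte precursor genes included the transcription factors Olig1 with 103, 110.0 and 119 and Olig2 with 31.4, 23.3 and 32.2, while the precursor receptor Pdgfra stood at 6.19 ± 0.328; 7 of 8 were members. Genes of mature oligodendrocytes were sparse, with 3 of 9 as members, among them Cnp at 15.2 ± 2.57 and Mbp with 2.97, 4.32 and 3.52. Mag, Mog and Mobp were each under 1 in every library.

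Of Cajal-Retzius genes 2 of 6 were members, Reln, the secreted signal of these early neurons, at 10.5 ± 1.98 and Calb2 with 2.62, 4.92 and 14.8, and the list median was 0.478. Of intermediate progenitor genes 2 of 6 were, Elavl4, also a pan-neuronal gene, with 38.5, 37.2 and 38.3 and Mfng with 2.21, 3.36 and 1.54, and the defining gene Eomes had 0, 0.0270 and 0.

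The other cell types were low, with list medians from 0 for microglia to 1.27 for fibroblast genes, beside 1.93 for all protein-coding IDs. Members made up from 9.09% of endothelial to 60% of choroid plexus genes, beside 53.5% of those IDs. Of microglia genes 2 of 15 were members, among them Cd68 with 2.93, 0 and 5.37, and 8 were listed at 0 in all 3, among them Csf1r, Cx3cr1 and Tmem119. Of endothelial genes 1 of 11 was a member, Kdr with 1.39, 2.54 and 2.24. Mural cell genes had 2 of 8, Acta2 with 0.127, 28.6 and 57.1 and Tagln with 1.79, 12.2 and 12.2. Fibroblast genes had 4 of 8, with Col1a1 at 0.820, 5.90 and 6.28, red blood cell genes 2 of 8 with Hba-a2 at 6.25, 6.17 and 2.66, and choroid plexus genes 3 of 5 with Folr1 at 0, 6.53 and 10.6. The summed mural level ran from 2.54 to 77.3. What non-neuronal RNA contributed to the level of genes that neurons also express was not tested.

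**Figure D4:**
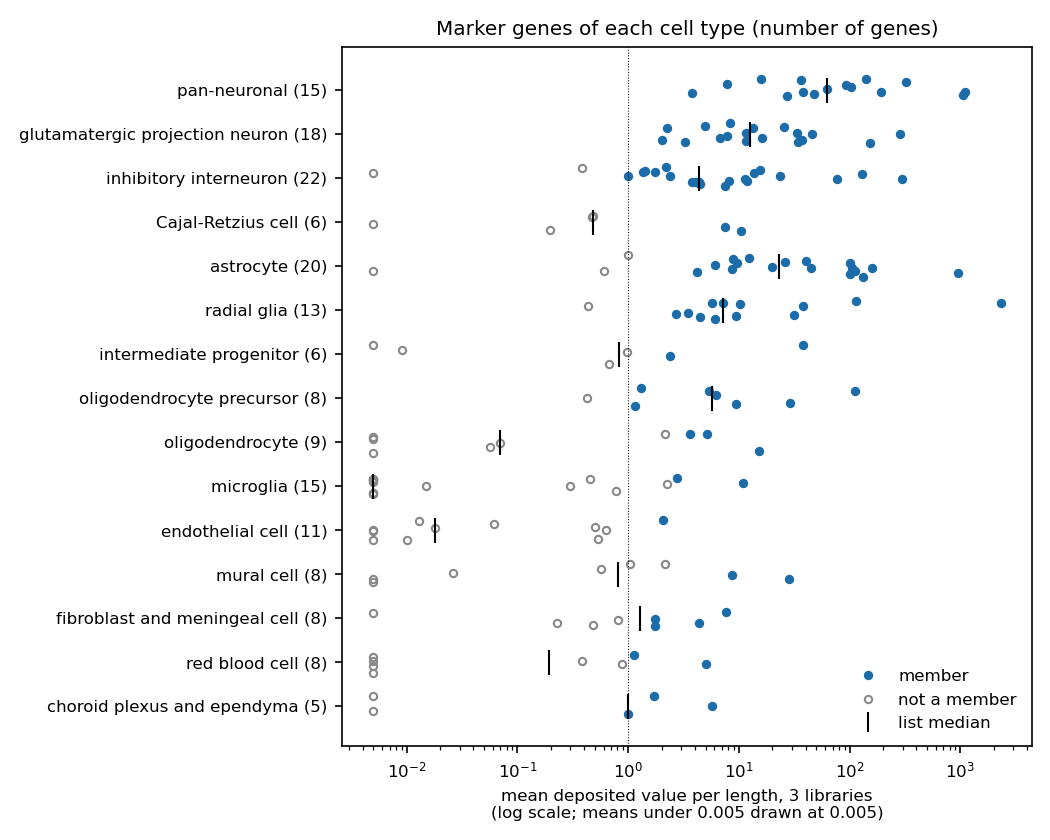
Mean deposited value of every marker gene by cell type, on a log axis, with members filled, other genes open and the list median as a bar; means under 0.005 are drawn at 0.005 and the dotted line marks 1. The medians of the pan-neuronal, projection neuron, interneuron, astrocyte, radial glia, oligodendrocyte precursor and fibroblast lists lie above 1. Those of the other lists lie below, the choroid plexus list only just, at 0.9997.

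The 3 libraries were alike for abundant members and less so for scarce ones. Across the 12756 members, Pearson's r of log2(value + 1) was 0.91, 0.91 and 0.92 for the 3 pairs of libraries and Spearman's rho 0.90, 0.90 and 0.91, as a description over genes. In each pair between 62.3% and 64.0% of members agreed within 1.5-fold. The median SD of log2(value + 1) was 0.11 at a mean of at least 1000, 0.15 from 100 to under 1000, 0.30 from 10 to under 100 and 0.53 from 1 to under 10. An SD over 1 was found in 966 members (7.57%).

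**Figure D5:**
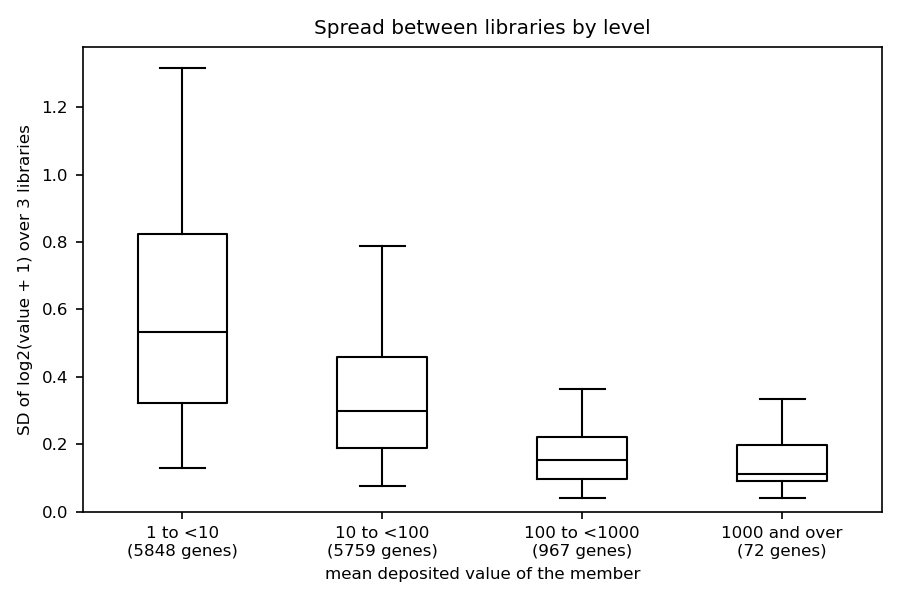
SD of log2(value + 1) over the 3 libraries, for members in 4 classes of mean value; boxes span the quartiles with the median as a line, and whiskers the 5th to 95th percentile. The median falls from 0.53 in the lowest class to 0.11 in the highest.

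Among named members with a mean of at least 10, the widest spread was in Acta2, the smooth muscle actin, whose values are given with the mural genes above. Then came Snora64, a small nucleolar RNA within another gene's exon, with 0, 31.9 and 10.9, and Mrm2, a mitochondrial methyltransferase, with 17.4, 15.9 and 0. Cnmd had 2.68, 21.3 and 39.4, the histone gene Hist1h4i 25.6, 2.07 and 16.6, Adgra1 22.6, 22.1 and 2.36 and LTO1 16.4, 28.8 and 2.84. Tmem203 had 2.56, 26.4 and 15.3, Kank3 9.40, 3.38 and 34.3 and Epdr1 24.2, 23.3 and 3.03. The lowest library was replicate 1 in 4 of them, replicate 2 in 2 and replicate 3 in 4.

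The steadiest members with a mean of at least 100 were Cdk4, a cyclin-dependent kinase, with 187, 187 and 188, Mtpn with 158, 157 and 157 and the neuronal kinase Cdk16 with 146, 145 and 147. The lactate dehydrogenase Ldhb had 206, 209 and 208, the complex I subunit Ndufa8 205, 204 and 207 and Vapa, an endoplasmic reticulum tether, 197, 197 and 199.8. Fau, a ribosomal fusion protein, had 395, 389 and 394, Hspa8 1322, 1337 and 1312, Jpt1 803, 818 and 807 and Rpl27a 136, 133 and 133. The SD of log2(value + 1) was at most 0.02 in all 10.

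Membership is least certain near the threshold. Just inside, with a second highest value of 1, were Spsb1 (0, 1 and 2.89), Htr2c (0, 1 and 4.64) and Rad51ap2 (0.547, 1 and 1.2). Just outside were Cyp1b1 (0.996, 0 and 1.78), P2rx3 (2.45, 0 and 0.994) and Gas2l3 (1.51, 0.775 and 0.994). The second highest value lay from 1 to 1.1 in 171 IDs and from 0.9 to under 1 in 180. A near-identical copy was found for 1392 members, and exons of 4234 overlapped those of another gene.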

How the data were processed

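RNA of 3 libraries of naive wild-type neurites was read from the deposited table. Libraries were made by Smart-seq2 with an oligo(dT) primer, from 1 ng of RNA with 14 PCR cycles and then Nextera XT on 500 pg of cDNA with 11 cycles, per the labels' protocols; they keep no strand. The submitters' processing notes name STAR 2.4.2a, RSEM 1.2.21 and mm10. The deposited values are a signal per transcript length made by the authors, estimated with RSEM as FPKM or TPM (the values do not tell which). With a tolerance of 0.00055, each deposited value equalled 1 factor per library times a multiple of 0.01; the values were not divided by this factor. Fragments behind a value of 1 were estimated from steps in the values of single-transcript genes of 400 to 1500 bases. The estimate was tried on simulated data made with the same length model, which cannot show that the model holds for these libraries.

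Members and lists were chosen with earlier results of these data known, so nothing here is independent support. Names, coordinates and sequences came from GENCODE M21 for the 44548 IDs that matched; 647 did not. Of the list names, 22 matched no single ID, 17 of them second names of ATP synthase genes. Copies were found with blastn 2.17.0 at 95% identity over 150 bases and 50% of the shorter transcript (mitochondrial genes: 85% over 100 bases), and exon overlap with bedtools 2.31.1. Shares are sums of values over a library's total. Named genes were the 30 highest, the 20 highest IDs of any kind, up to 5 of each list, any gene of a cell type list, the 10 highest long noncoding RNAs, the 10 widest and 10 narrowest spreads, 3 on each side of the threshold and Cpeb1 to Cpeb4. Camk2a, Neat1, Xist, Mki67, Arc and Nefh were named after their values were seen. No test was run, since there was 1 group. Alternatives covered the threshold, pseudocount, scaling, ranking, gene types, copies and each library left out. A few listed genes and 1 sequence are not reported here.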

Additional observations from a re-analysis of the deposited data

How the results depend on the processing

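The number of members stayed within 1.5 times of 12756 under every alternative run, from 8928 at a minimum value of 5 to 16179 at any value above 0. The 100 most abundant members held 27.0% with ribosomal RNA and mitochondrial copies left out and 28% among protein-coding genes alone, in place of 43.8%. Ranking by the median kept 99 of the 100 and ranking by log2 values all 100. With protein-coding genes alone in the total, shares rose by 1.41 to 1.43 times over the 45 lists: ribosomal proteins to 9.80%, actin and regulators to 3.22%, tubulins to 2.79%, growth cone genes to 2.44%, pan-neuronal genes to 0.592%, radial glia to 0.463%, astrocyte to 0.336% and interneuron to 0.113%. Without genes that have a near-identical copy, ribosomal proteins held 0.371%, tubulins 0.303%, actin and regulators 1.45% and growth cone genes 1.26%. For ribosomal proteins 75 of 82 genes were thereby left out. Other families fell too, among them translation factors to 0.345%, chaperones to 0.578%, ubiquitin genes to 0.325% and the ATP synthase to 0.733%. Iron storage and antioxidant genes fell to 0.515% and glycolysis to 0.176%. Lists without copies, such as presynaptic genes at 0.396%, did not change. The median SD of log2(value + 1) over all members, 0.37, was 0.41 at a pseudocount of 0.1, 0.25 at 5, 0.38 after rescaling to a common sum, 0.30 for a minimum value of 5, 0.27 for 10, and 0.29 to 0.30 with 1 library left out. Leaving out 1 library moved 3 lists by over 1.5 times: without replicate 3, the microglia list fell from 0.00221% to 0.00146%, the mural list from 0.00530% to 0.00315% and the choroid plexus list from 0.00108% to 0.000709%. No paired analysis was possible because 1 group was described and no test was run. Counts are not known, so no counting intervals are given.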
